A study of Mus musculus with 2 samples.

Results

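The mitochondrially encoded respiratory genes are the genes of the mitochondrial genome whose products sit in the respiratory chain and ATP synthase. The 10 described here are mt-Nd1, mt-Nd2, mt-Nd3, mt-Nd4, mt-Nd5, mt-Co1, mt-Co2, mt-Co3, mt-Atp6 and mt-Cytb, chosen by name from the 32285 genes counted. The files hold 13 protein-coding genes of the mitochondrial genome, and the remaining 3, mt-Nd4l, mt-Nd6 and mt-Atp8, are given beside the 10 members where a result needs them. Single-cell RNA was counted in the RPE/choroid/sclera tissue of male C57BL/6J mice aged 3 months. The mice had received 1 µl of PBS (control) or 1 µl of doxorubicin at 100 ng/µl (Dox), a drug that damages DNA, into the subretinal space 7 days earlier. Each condition was 1 library pooled from 10 eyes of 5 mice, so that there was no replicate, no test was made, and the injected agent, the mice and the library cannot be told apart. Dead cells were removed before capture and, as the study states, the injected Dox reached only a part of the RPE.

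Oxidative phosphorylation passes electrons from nutrients through complexes I, III and IV to oxygen, pumps protons on the way and lets them return through complex V, which makes ATP. Complexes I, III, IV and V are built from subunits of both genomes, while complex II is encoded in the nucleus alone. The mitochondrial RNAs are cut out of long polycistronic transcripts of the circular genome, and the transfer RNAs between the genes mark most of the cuts. The retinal pigment epithelium (RPE), the pigmented layer behind the photoreceptors, is rich in mitochondria and relies on oxidative phosphorylation, passing glucose on to the retina.

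The deposited control library held 20381 cells with 117731270 unique molecular identifiers (UMIs, tags that mark single RNA molecules), and the Dox library held 15649 cells with 103997248 UMIs. The study's limits on UMIs, genes, complexity and mitochondrial share (under 20% of a cell's UMIs) kept 20180 and 15426 cells. The last of these limits caps the quantity measured here. RPE cells, those with at least 10 UMIs of the retinoid isomerase gene Rpe65, numbered 1526 in control and 1630 in Dox, after 22 and 29 such cells had been left out for their mitochondrial share (1.39% and 1.66% of the RPE cells deposited, against 0.718% and 0.741% of the other cells). Of the 1582 and 1746 RPE cells deposited, 30 and 78 exceeded the upper limit on genes, and 8 and 24 fell short on complexity. A cell could fail several limits. In both libraries 6 of the 7 RPE markers stood above 10 CPM (UMIs per 1000000 UMIs), and Best1, at 0.532 and 0.673 CPM, did not. RPE cells were split by the nuclear RNA Malat1 and the secreted protease inhibitor gene Serpina3n. Malat1-rich cells had at least 50000 CPM of Malat1 (153 and 211 cells), Serpina3n-high cells had at least 1000 CPM of Serpina3n and less Malat1 (15 and 192 cells), and the rest were the main RPE cells (1358 and 1227 cells). Of the RPE cells, 57 and 54 lay near the Malat1 cut and 8 and 28 near the Serpina3n cut, so that the groups are ranges and not cell types. The libraries shared 441 barcodes, which 36 control and 49 Dox RPE cells carried. Levels are UMIs summed over the cells of a group per 1000000 UMIs of that group, and every 95% interval given covers counting error only.

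The genes lie close together on the mitochondrial chromosome, all 10 members on its + strand, and in places they overlap. For mt-Atp8 and mt-Atp6, and for mt-Nd4l and mt-Nd4, the start codon of the second gene lies inside the first, so that the pair is carried on a single RNA and a read within the shared bases belongs to both genes. The ends of the first genes and the starts of the second genes, from GENCODE vM21 transcripts on GRCm38, are shown because the counts of mt-Atp6 and mt-Nd4 turn on how reads of these pairs are divided. Capitals mark the bases shared by both genes, 43 for the first pair and 7 for the second. The stretches are chrM:7910-7969, chrM:7927-7986, chrM:10150-10173 and chrM:10167-10190 in this order.
mt-Atp8 end: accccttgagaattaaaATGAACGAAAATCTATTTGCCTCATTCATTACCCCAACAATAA
mt-Atp6 start: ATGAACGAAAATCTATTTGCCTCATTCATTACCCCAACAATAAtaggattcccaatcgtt
mt-Nd4l end: aatctcaacctactacaATGCTAA
mt-Nd4 start: ATGCTAAaaattattcttccctca

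Together the 10 members made up 23547 CPM (23487 to 23607) of the main RPE cells in control and 24211 CPM (24150 to 24273) in Dox. The catalytic core of complex IV, cytochrome c oxidase, the last complex of the chain, had the highest counts. mt-Co1 (ENSMUSG00000064351, chrM:5328-6872), the subunit that holds the site where oxygen is reduced, reached 5103 CPM (5075 to 5131) in control cells and 5202 CPM (5173 to 5231) in Dox cells. mt-Co2 (ENSMUSG00000064354, chrM:7013-7696), which takes electrons from cytochrome c, stood at 3719 and 3735 CPM. mt-Co3 (ENSMUSG00000064358, chrM:8607-9390), the third core subunit, stood at 3334 and 3548 CPM. mt-Cytb (ENSMUSG00000064370, chrM:14145-15288) encodes cytochrome b, the only subunit of complex III made in the mitochondrion, and was counted at 4956 and 4985 CPM.

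In the same main RPE cells, mt-Atp6 (ENSMUSG00000064357, chrM:7927-8607), a subunit of the proton channel of complex V, was counted at 1924 CPM (1906 to 1941) in the control and 2186 CPM (2167 to 2204) in the Dox library. The members of complex I, the entry point for electrons from NADH, had the lowest counts. mt-Nd1 (ENSMUSG00000064341, chrM:2751-3707) stood at 1329 and 1310 CPM, and mt-Nd4 (ENSMUSG00000064363, chrM:10167-11544) at 1200 and 1217 CPM. mt-Nd2 (ENSMUSG00000064345, chrM:3914-4951) stood at 1115 and 1141 CPM. mt-Nd5 (ENSMUSG00000064367, chrM:11742-13565), which lies at the far end of the membrane arm, had 644 and 674 CPM, and mt-Nd3 (ENSMUSG00000064360, chrM:9459-9806), the shortest member, had 223 and 211 CPM.

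Between genes, levels in main RPE cells are also given per kilobase of gene. A 5′ library counts each RNA molecule once whatever its length, so this scale lowers long genes, and by plain CPM mt-Co1 came first. Per kilobase, mt-Co2 led the 10 members in both libraries with 5437 CPM in control and 5461 CPM in Dox. mt-Cytb with 4332 CPM per kilobase and mt-Co3 with 4252 CPM per kilobase followed in control and stood in the opposite order in Dox, with 4358 and 4526 CPM per kilobase. The order of the others was the same in both libraries. mt-Co1 had 3303 and 3367 CPM per kilobase, mt-Atp6 had 2825 and 3210, and the complex I members fell from 1389 and 1369 CPM per kilobase for mt-Nd1 to 353 and 370 for mt-Nd5. The 5 members outside complex I stood above the 5 members of complex I on both scales. This holds for the members and not for every gene of complex I. mt-Nd4l, a complex I gene outside the members, had 50447 UMIs over 297 bases in control, against 48309 over 681 bases for mt-Atp6. In Dox, mt-Nd4l had 48401 UMIs and mt-Atp6 53540.

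**Figure D1:**
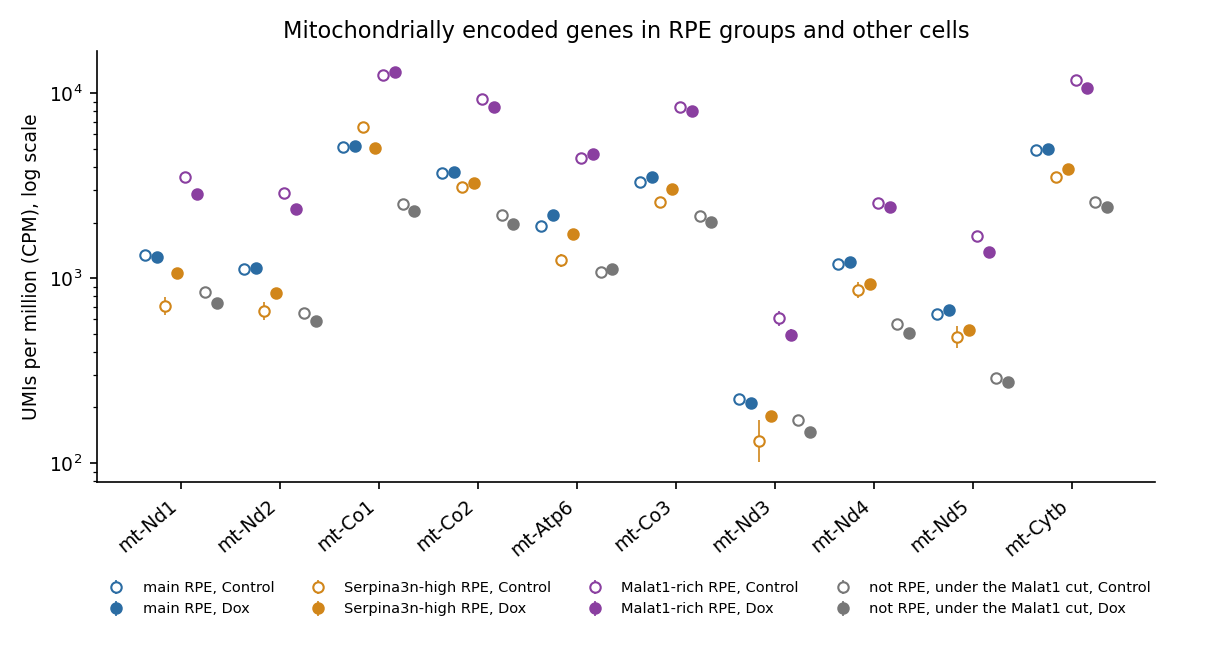
Levels of the 10 members in main, Serpina3n-high and Malat1-rich RPE cells and in the other kept cells below the Malat1 cut, in CPM on a log axis. Open circles are control and filled circles Dox, bars are 95% counting intervals, and for each member the Malat1-rich RPE cells stand highest in both libraries.

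At least 1 UMI of mt-Cytb was found in 99.5% of the main RPE cells in control (98.9 to 99.8, Clopper-Pearson) and 98.9% in Dox. For mt-Nd3 these shares were 90.9% and 90.7%. No cell type lacks these genes, so the share that free RNA in the droplets would give could not be measured, and a single UMI is not read as expression. In main RPE cells of control, the sum of the members ranged from 590 CPM in the lowest cell to 168845 CPM in the highest, with a median of 21757 CPM. In those of Dox it ranged from 188 to 169220 CPM, with a median of 22238 CPM. The single cell with the most UMIs held 0.228% of the summed member UMIs in control and 0.328% in Dox.

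Across cell types, the members were more abundant in main RPE cells than in the other cells pooled, though not than in every cluster. Over the other kept cells below the Malat1 cut, which had 13054 and 12079 CPM, the summed members were higher in main RPE cells by 0.85 on the log2 scale in control and by 1.0 in Dox. A gene was counted as higher or lower past the fold threshold where its log2 ratio exceeded 0.322 or lay below -0.322, among genes with at least 50 UMIs over both groups of cells. Each of the 10 members was higher past this threshold in both libraries, where 24.8% of all genes in control and 26.3% in Dox were. The median log2 ratio was 0.81 for the members and -0.44 for all genes in control, and 0.96 and -0.40 in Dox. mt-Nd3 had the smallest of these ratios and fell short of 1.5-fold in both libraries, as the only member. Main RPE cells also held more UMIs, with a median of 17597 and 19075 UMIs per cell against 4438 and 4830.5 in the other cells.

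Among the other clusters, named from marker genes, the melanocyte-like cells came closest to the main RPE cells, with 21437 CPM of the summed members in control and 23317 CPM in Dox. This cluster was led by the hemoglobin gene Hbb-bs, held Pmel among its 10 leading genes, and had a median of only 1130 and 763 UMIs per cell. The smooth muscle or pericyte-like cells followed with 17575 and 17708 CPM. The fibroblast-like cells led by Myoc, the largest cluster with 12719 and 9691 cells, had 12112 CPM (12085 to 12138) and 11261 CPM (11233 to 11289). The macrophage or antigen-presenting-like cells, with 11966 and 10144 CPM, and the NK or T-like cells, with 11947 and 10307 CPM, stood beside them, and the control intervals of these 2 clusters overlapped. The NK or T-like cluster was led by the antibody gene Igkv4-91. Schwann-like cells had 11322 and 8281 CPM, endothelial-like cells 9829 and 9822 CPM, and the fibroblast-like cells led by Dpt, the lowest, 9559 and 7787 CPM. An unnamed cluster was led by the RNA Snhg7os and also held Malat1 among its 10 leading genes. With 31873 and 27269 CPM, it stood above the named clusters outside the RPE and also above the main RPE cells. The RPE-like cluster also held 45 control and 47 Dox cells with fewer than 10 Rpe65 UMIs. Their members summed to 49901 and 44778 CPM, above the main RPE cells as well, while the median cell held 3803 and 5127 UMIs.

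Over the 24 points given by 12 classes of cells in 2 libraries, the members rose and fell together. Their pairwise Pearson correlations of log2 CPM ran from 0.863, for mt-Nd3 with mt-Co1, to 0.988, with a median of 0.960. These points share libraries and denominators, and the values are a description. Of 1061 nuclear genes with at least 50 CPM at every point, the 5 whose level was most like the members' sum over the same points were Trpm3, a cation channel gene (r of 0.881), Itgb8, an integrin subunit gene (0.851), Ube3a, a ubiquitin ligase gene (0.851), Malat1 (0.841) and Lrat (0.825), which encodes the enzyme that esterifies retinol in the RPE. The likeness of Malat1 is partly built in, since the Malat1-rich RPE cells of both libraries are among the points.

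Summed over RPE cells of all depths, the members differed little between Dox and control. Over all RPE cells the control library had 24458 CPM of the sum and the Dox library 24826 CPM, which differ by 0.02 on the log2 scale (0.02 to 0.03). Of the 10 members, 0 were higher past the fold threshold, where 4.67% of all genes were, and 0 were lower, where 10.3% of all genes were. Among genes with at least 1000 UMIs, as all members had, only 1.57% were higher and 2.85% lower. That floor was chosen after seeing the data. The median cell had a mitochondrial share of 2.45% in control and 2.44% in Dox. The median log2 ratio was -0.01 for the members and -0.01 for all genes. The sign of the summed ratio was not stable, since it became -0.05 with RPE cells taken at 3 or more Rpe65 UMIs and -0.02 without the RPE cells that held 5 or more of 12 fibroblast markers, a choice made after seeing the data.

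In main RPE cells the log2 ratio of the sum was 0.04 (0.03 to 0.05), and it became -0.08 with RPE cells taken at 3 or more Rpe65 UMIs. Again 0 of the 10 members were higher past the fold threshold (3.94% of all genes) and 0 were lower (9.72% of all genes). At the floor of 1000 UMIs, these shares of all genes were 0.81% and 2.75%. mt-Atp6 had the largest ratio, 0.18 (0.17 to 0.20), followed by mt-Co3 with 0.09 (0.08 to 0.10) and mt-Nd5 with 0.07 (0.04 to 0.10). mt-Nd3 had the lowest, -0.08 (-0.13 to -0.02), and the counting intervals of mt-Nd1, mt-Nd4, mt-Co2 and mt-Cytb held 0. With 1 library per condition, none of these differences can be told apart from differences between libraries. Fibroblast markers moved alongside, 8 of 12 standing at 10 CPM or more in both libraries with sums of 1528 and 1003 CPM and Kera at 0, and melanocyte markers summed to 2687 and 1689 CPM, with 7 and 6 of 8 at 10 CPM or more. Their part in the result was not tested.

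**Figure D2:**
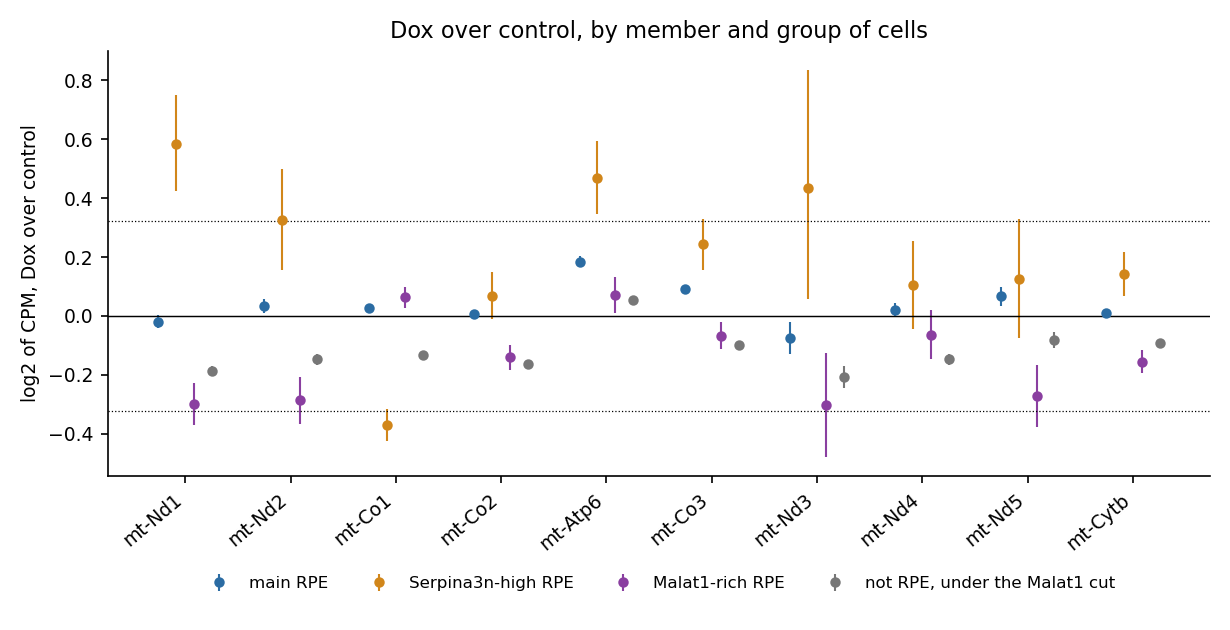
Log2 ratio of Dox over control for each member in 4 groups of cells, with 95% counting intervals and dotted lines at the fold threshold of 0.322 and -0.322. The main RPE cells stay between -0.08 and 0.18, while the Serpina3n-high cells, with 15 cells in control, scatter past the lines.

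The cells outside the RPE differed somewhat more. Their members summed to 13652 CPM in the control and 12388 CPM in the Dox library, with a log2 ratio of -0.14. Over the 12 classes of cells, RPE groups included, the sum was higher in Dox beyond counting error in 3, lower in 7 and within counting error in 2, with a range from -0.45 in the Schwann-like cells (48 and 32 cells) to 0.12 in the melanocyte-like cells. mt-Atp6 went against the other members, being higher in 7 classes and lower in 2. mt-Atp8, carried on the same RNA, was higher in 1 class and lower in 11. The 2 genes summed had a log2 ratio of 0.05 in main RPE cells and -0.15 in the cells outside the RPE. mt-Co2 and mt-Nd4 were higher in 0 classes and lower in 8 and 5.

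Among the RPE groups, the Malat1-rich cells had the highest levels of every member. Of these 153 control and 211 Dox cells, only 42 and 50 lay in the RPE-like cluster. The unnamed cluster led by Snhg7os held 124 and 176 cells with at least 10 Rpe65 UMIs. In Malat1-rich RPE cells the members summed to 57914 CPM (57369 to 58462) in control and 54539 CPM (54137 to 54944) in Dox. This sum was above that of the main RPE cells by 1.30 on the log2 scale (1.28 to 1.31) in control and by 1.17 (1.16 to 1.18) in Dox. Each of the 10 members was higher past the fold threshold in both libraries, but so were 57.1% of all genes in control and 58.9% in Dox. The median log2 ratio was 1.33 for the members and 0.53 for all genes in control, and 1.12 and 0.60 in Dox. Among genes with at least 1000 UMIs over both groups, a floor chosen after seeing the data, 31.0% in control and 34.4% in Dox were higher. The median log2 ratios of these genes were -0.20 and -0.18. In control, mt-Nd3 had the largest ratio, 1.45 (1.31 to 1.59), at 610 CPM in the Malat1-rich cells, and mt-Nd4 the smallest, 1.08 (1.01 to 1.15), at 2540 CPM. In Dox, mt-Co1 had the largest, 1.33 (1.31 to 1.36), at 13108 CPM, and mt-Nd4 again the smallest, 1.0 (0.94 to 1.05), at 2430 CPM.

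Within the Malat1-rich group the cells differed widely. The mitochondrial share had a median of 4.28% in control and 4.4% in Dox, against 2.44% and 2.50% in main RPE cells, and the 5th and 95th percentiles were 0.382% and 17.9% in control and 0.334% and 16.7% in Dox. Cells under 1% made up 21.6% and 27.0% of the Malat1-rich cells, against 7.0% and 7.58% of the main cells. Cells of 10% or more made up 23.5% and 20.9%, against 3.46% and 3.99%. The group thus had larger shares of its cells at both ends than the main RPE cells had, and its highest cells ran up to the 20% limit.

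The Malat1-rich cells were also shallow, with a median of 4117 UMIs per cell in control and 5025 in Dox. In main RPE cells the members' level fell with depth. In those of control, the sum fell from 53423 CPM in cells of 500 to 5000 UMIs to 46161 CPM at 5000 to 10000. It was 29548 CPM at 10000 to 20000, 18125 CPM at 20000 to 40000 and 13795 CPM in deeper cells. In those of Dox it was 54934, 46715, 31416, 20206 and 16236 CPM in the same classes. In the shallowest class, the Malat1-rich cells did not exceed the main cells, with 51761 CPM in control and 45968 CPM in Dox against 53423 and 54934 CPM. At 5000 to 10000 UMIs they were higher, with 67906 and 63202 CPM against 46161 and 46715 CPM. At 10000 to 20000 UMIs, 13 control and 33 Dox Malat1-rich cells had 49891 and 52183 CPM against 29548 and 31416 CPM. Unlike in the main cells, the level within the Malat1-rich group was highest at 5000 to 10000 UMIs in both libraries. Among cells of 2000 to 8000 UMIs in both groups, a window chosen after seeing the data, the log2 ratio of the sum was 0.36 in control and 0.15 in Dox. With only cells of a mitochondrial share under 5% in both groups, also chosen after seeing the data, it was -0.185 and -0.0291, but that limit cuts on the measured quantity itself and removes more of the Malat1-rich cells, so that a fall was built in.

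**Figure D3:**
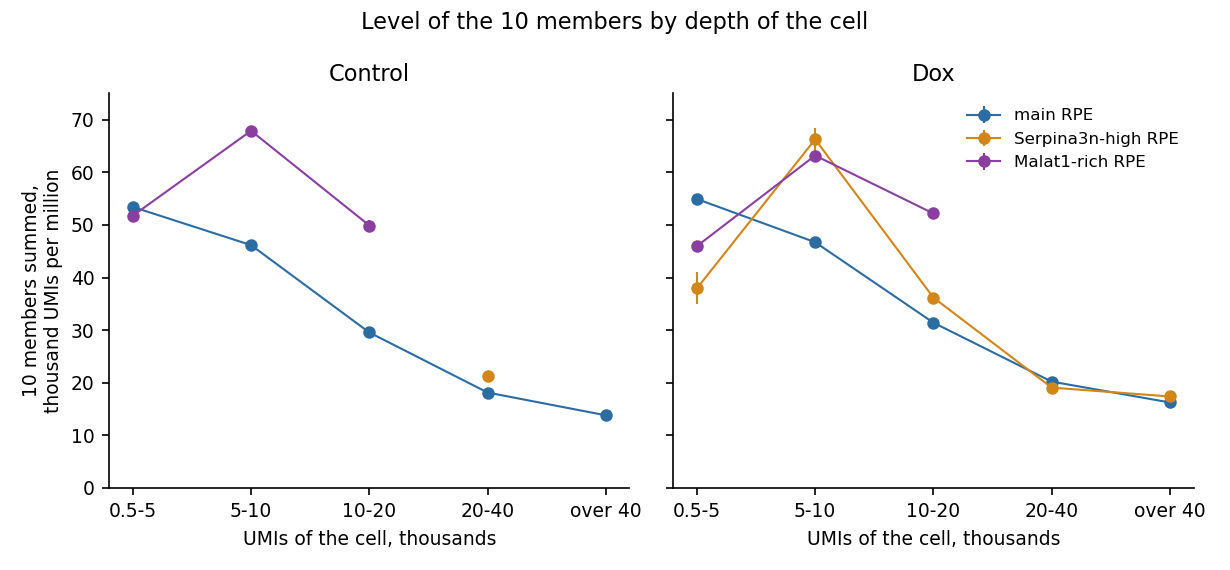
Level of the 10 members summed, in units of 1000 CPM, by the number of UMIs of the cell, for the RPE groups of each library; points of fewer than 5 cells are not drawn and bars are 95% counting intervals. The level of the main RPE cells falls with depth from 53423 to 13795 CPM in control and from 54934 to 16236 CPM in Dox. The Malat1-rich cells exceed them from 5000 UMIs upward.

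Other markers differed in this group as well. The 7 RPE markers summed to 33380 CPM in control and 30870 CPM in Dox, against 98697 and 103671 CPM in main RPE cells, with 6 of 7 at 10 CPM or more in each. Rpe65, on which the cells were chosen, stood at 5081 and 4422 CPM against 5006 and 5540 CPM. Fibroblast markers, 8 of 12 at 10 CPM or more with Dpt and Kera at 0, summed to 2910 and 2021 CPM against 1528 and 1003 CPM. Melanocyte markers, 8 of 8 at 10 CPM or more, summed to 4668 and 2402 CPM against 2687 and 1689 CPM. Endothelial markers, 0 and 3 of 7 at 10 CPM or more, summed to 21.4 and 151 CPM against 31.5 and 19.2 CPM, and smooth muscle or pericyte markers, 6 of 7 in both, to 441 and 615 CPM against 432 and 297 CPM. Of 6 photoreceptor markers, 0 were at 10 CPM or more in the RPE groups, and they summed to 1.87 and 2.74 CPM in main and 4.02 and 9.31 CPM in Malat1-rich cells. The part of depth and of these markers in the level of the members was not tested.

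Between Dox and control, the Malat1-rich cells had a log2 ratio of the sum of -0.09 (-0.10 to -0.07). Its sign was not stable. The ratio became 0.011 in cells whose mitochondrial share was below 0.1 and 0.0254 once the groups were cut at 25000 CPM of Malat1 and 500 CPM of Serpina3n. In the RPE-like cluster alone, which held 42 control and 50 Dox cells of the group, it was -0.4596. Of the 10 members, 0 were higher past the fold threshold (20.7% of all genes) and 0 were lower (17.7% of all genes). mt-Nd1, with 3527 and 2866 CPM, mt-Nd3, with 610 and 494 CPM, and mt-Nd2, with 2906 and 2381 CPM, came closest at -0.30, -0.30 and -0.29, whereas mt-Atp6 and mt-Co1 were at 0.07 and 0.06. Relative to the median of all genes, which was 0.04, 3 members were lower past the fold threshold. The share of all genes that were lower after the same centring was not counted, so this count has no background beside it.

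In Serpina3n-high RPE cells the members stood lower than in main RPE cells, with 19883 CPM (19475 to 20298) in control and 20537 CPM (20417 to 20658) in Dox. The log2 ratio over main cells was -0.24 in both libraries, with intervals of -0.27 to -0.21 in control and -0.25 to -0.23 in Dox. With RPE cells taken at 3 or more Rpe65 UMIs, the Dox ratio turned to 0.1101. In control, 8 members were lower past the fold threshold, where 40.5% of all genes were, and 1, mt-Co1, was higher at 0.37, where 20.7% of all genes were. Without the cell with the most UMIs of the gene, mt-Co1 came to 0.29, within the threshold, and mt-Co2 passed it from -0.26 to -0.33. In Dox, 5 members (mt-Nd2, mt-Nd4, mt-Nd5, mt-Atp6 and mt-Cytb) were lower, where 35.7% of all genes were. The median log2 ratio was -0.48 for the members and -0.16 for all genes in control, and -0.32 and -0.17 in Dox. These cells were the deepest, with a median of 33954 UMIs in control and 28882.5 in Dox. Among cells of at least 20000 UMIs in both groups, a choice made after seeing the data, the log2 ratio of the sum was 0.10 in control and -0.05 in Dox.

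The control values of this group rest on 15 cells. The cell with the most UMIs of a gene held between 10.3% (mt-Co3) and 21.2% (mt-Nd2) of that member's UMIs. Dox over control, 4 of the 10 members were higher past the fold threshold, where 25.9% of all genes were, and 1 was lower, where 24.9% of all genes were. The higher ones were mt-Nd1, from 709 to 1064 CPM (log2 ratio 0.59, 0.42 to 0.75), mt-Atp6, from 1252 to 1732 CPM (0.47), mt-Nd3, from 133 to 179 CPM (0.43, 0.06 to 0.84) and mt-Nd2, from 667 to 836 CPM (0.33). The lower one was mt-Co1, from 6579 to 5087 CPM (-0.37, -0.43 to -0.32), which came to -0.31, within the fold threshold, once the cell with the most UMIs of it was left out of each library. Among genes with at least 1000 UMIs over both groups, a floor chosen after seeing the data, 15.6% were higher and 16.8% lower. In counts simulated for this comparison, 40.5% of unchanged genes with at least 50 UMIs passed the fold threshold in either direction. All 10 members had at least 1000 UMIs, as only 755 of the 7497 genes counted did, so that share is not one for the members. The sum had a ratio of 0.05 (0.02 to 0.08), which became -0.1483 with the cuts at 100000 CPM of Malat1 and 2000 CPM of Serpina3n, -0.0887 without cells holding 5 or more fibroblast markers, a choice made after seeing the data, and 0.2557 with the cuts at 25000 and 500 CPM. In this group the fibroblast markers summed to 1670 CPM in control and 376 CPM in Dox, with 7 and 6 of 12 at 10 CPM or more, and their part was not tested.

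The nuclear genes of the same complexes give a second view. In main RPE cells, the mitochondrial genes of complex IV together had 12156 CPM in control against 11698 CPM for 11 nuclear subunits, and mt-Cytb had 4956 CPM against 4525 CPM for 9 nuclear subunits of complex III. Complex I and complex V were dominated by nuclear RNA, with 6551 CPM for 7 mitochondrial genes against 14850 CPM for 36 nuclear ones, and 2818 CPM for mt-Atp6 and mt-Atp8 against 12290 CPM for 16 nuclear ones. Over all 4 complexes, mitochondrial over nuclear UMIs gave a ratio of 0.611 in control and 0.615 in Dox.

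Between Dox and control, the nuclear partners were as little changed in RPE cells as the members. Over all RPE cells, 0 of 36 genes of complex I, 0 of 9 of complex III, 0 of 11 of complex IV and 0 of 16 of complex V passed the fold threshold in either direction. Of all genes, 4.67% were higher and 10.3% lower. Among genes with at least 200 UMIs, as all these subunits had, 2.61% were higher and 5.55% lower. The medians of the 4 complexes were 0.01, 0.03, 0.02 and 0.02 on the log2 scale against -0.01 for all genes. The lowest and highest ratios were -0.13 for Ndufa3 and 0.14 for Ndufa12, both accessory subunits of complex I, and -0.08 for Uqcrb and 0.08 for Uqcrq in complex III. In complex IV they were -0.09 for Cox7c and 0.14 for Cox6a1, and in complex V -0.18 for Atp5k and 0.11 for Atp5o. Atp5b, the catalytic subunit of ATP synthase, was at 0.10. Of 17 genes that maintain and transcribe mitochondrial DNA, 0 passed the fold, and Tefm, an elongation factor of mitochondrial transcription, had the highest ratio, 0.32 (0.01 to 0.63), at 5.62 and 7.02 CPM. The polymerase subunit genes Polg and Polg2, which copy mitochondrial DNA, were at 0.25 and -0.25. Of 22 genes of mitochondrial RNA handling and translation, 0 passed, the range running from -0.17 for Elac2, a transfer RNA nuclease, to 0.27 for Tbrg4. Of 7 transcription factors of mitochondrial biogenesis, 1 was lower, Ppargc1b, a coactivator, from 5.51 to 4.33 CPM (-0.35, -0.70 to -0.00), and its relative Ppargc1a stood at 38.5 and 41.0 CPM. A single gene of 7 is near the 10.3% of all genes that were lower. Of 11 genes of mitophagy and quality control, 0 passed, from -0.09 for the chaperone gene Hspd1 to 0.13 for the protease gene Lonp1.

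In Malat1-rich cells the 2 genomes parted. Of the nuclear subunits, 35 of 36 of complex I, 9 of 9 of complex III, 11 of 11 of complex IV and 16 of 16 of complex V were lower than in main RPE cells past the fold threshold, in both libraries, where 23.7% of all genes in control and 23.1% in Dox were lower. The median log2 ratios were -1.57, -1.44, -1.68 and -1.58 in control and -1.90, -1.86, -2.12 and -1.90 in Dox, opposite in sign to those of the members. Among genes with at least 1000 UMIs over both groups, a floor chosen after seeing the data, 45.1% in control and 45.5% in Dox were lower. The median log2 ratios of these genes were -0.20 and -0.18. Mitochondrial over nuclear UMIs of the 4 complexes gave a ratio of 4.89 in control and 5.29 in Dox. The difference was widest in complex IV, where 30316 CPM of mitochondrial RNA stood against 3443 CPM of nuclear RNA in control. Genes that maintain and transcribe mitochondrial DNA moved both ways, 9 of 17 being higher and 4 lower in both libraries, near the shares over all genes (57.1% higher and 23.7% lower in control, 58.9% and 23.1% in Dox), and the transcription factors of mitochondrial biogenesis were higher in 7 of 7 in control and 6 of 7 in Dox. In Serpina3n-high cells, the ratio of mitochondrial over nuclear UMIs was 0.494 in control and 0.513 in Dox. A high ratio was not particular to the RPE. In the unnamed cluster led by Snhg7os, without its RPE cells, it was 2.59 in control and 2.19 in Dox. Between Dox and control in Malat1-rich cells, 13 of 36 nuclear genes of complex I, 2 of 9 of complex III, 4 of 11 of complex IV and 7 of 16 of complex V were lower past the fold threshold, where 17.7% of all genes were.

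**Figure D4:**
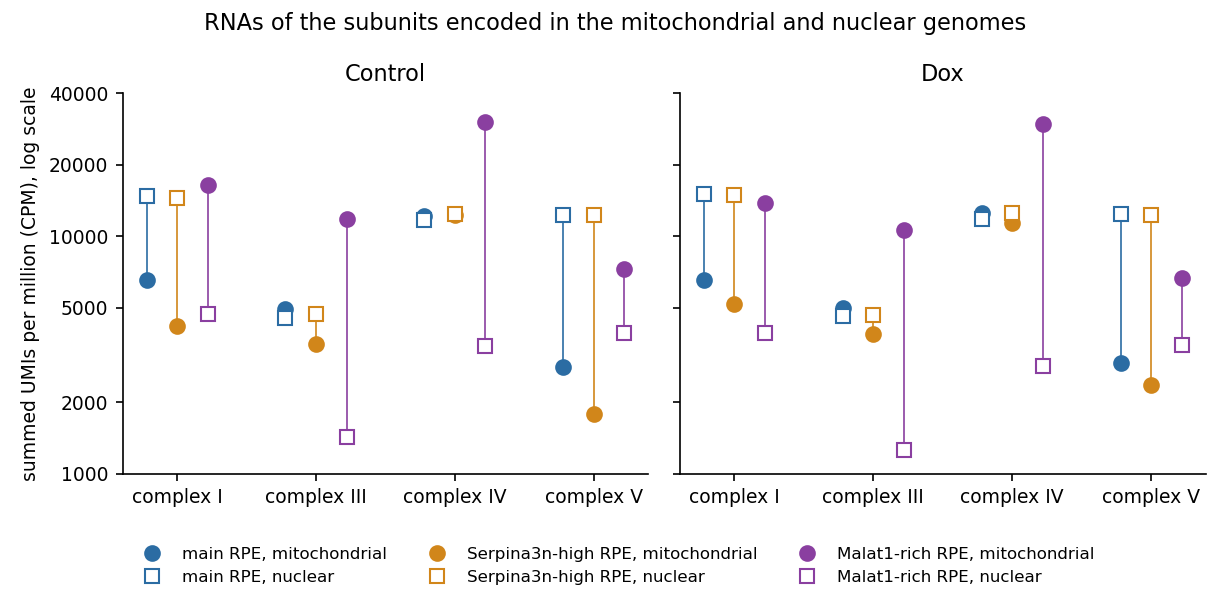
Summed levels of the mitochondrial (filled circles) and nuclear (open squares) genes of complexes I, III, IV and V in main, Serpina3n-high and Malat1-rich RPE cells, in CPM on a log axis. In Malat1-rich cells the mitochondrial sum stands above the nuclear sum in every complex, whereas in main RPE cells it lies below it in complexes I and V.

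The make-up of the mitochondrial RNA was also compared. Of the UMIs of all 13 genes in main RPE cells, mt-Co1 took 19.3% in both libraries, mt-Cytb 18.7% in control and 18.5% in Dox, mt-Co2 14.0% and 13.9%, and mt-Co3 12.6% and 13.2%. mt-Atp6 moved most among the members, from 7.26% to 8.11%, a log2 ratio of the shares of 0.16 (0.14 to 0.18). Its neighbour mt-Atp8 moved the other way, from 3.38% to 2.73% (-0.31, -0.34 to -0.28).

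Since both lie on the same RNA, the split between them was followed in every class of cells. In main RPE cells, mt-Atp8 took 31.8% (31.4 to 32.1, Clopper-Pearson) of the UMIs of the pair in control and 25.2% (24.8 to 25.5) in Dox, while the sum of the pair had a log2 ratio of 0.05 (0.04 to 0.07). In the cells outside the RPE the share was 38.8% in control and 30.6% in Dox. It was lower in Dox beyond counting error in 9 of the 12 classes and overlapping in 3, the small Serpina3n-high, Dpt-led fibroblast-like and Schwann-like classes, in which the Dox value also lay below the control value. For mt-Nd4l and mt-Nd4, which share only 7 bases, the share of mt-Nd4l was lower beyond counting error in 2 classes, main RPE (62.6% to 61.9%) and Malat1-rich RPE cells (67.1% to 63.2%), and overlapped in 10. Treatment and library cannot be told apart here, and how the counting divided reads of the shared bases was not tested.

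**Figure D5:**
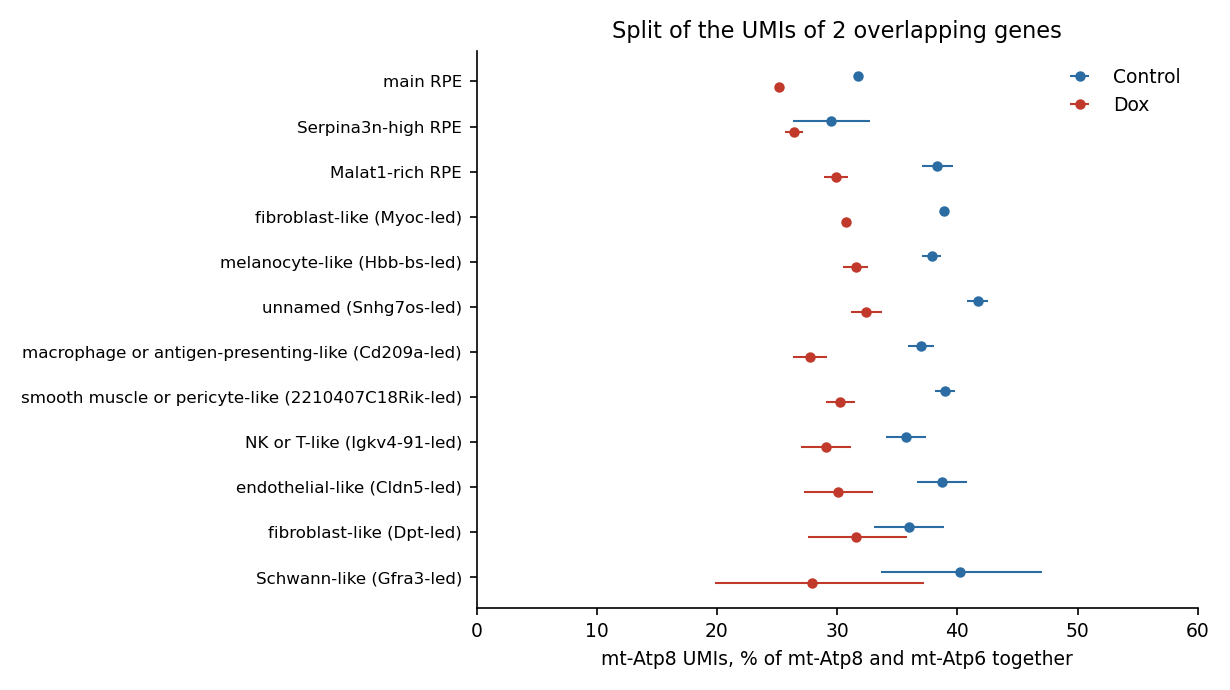
Share of mt-Atp8 among the UMIs of mt-Atp8 and mt-Atp6 together, in percent with 95% Clopper-Pearson intervals, for 12 classes of cells in control and Dox. The Dox share lies below the control share in every class, from 31.8% to 25.2% in main RPE cells.

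Near-identical copies limit the certainty of the counts. In GENCODE vM21, 8 of the 10 members have an annotated nuclear pseudogene at 95% identity or more over at least 100 bases, 10 copies in all, on chromosomes 1, 2 and 13, and mt-Nd1 and mt-Cytb have none. The copy Gm10925 matches mt-Atp6 at 100% over 678 of its 681 bases, and Gm28437 matches mt-Co3 at 100% over 783 of 784 bases. Of these 10 copies, 0 are among the genes counted. How reads that match both places were assigned is not given in the sources used here, so the levels of these 8 members are uncertain to that extent.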

How the data were processed

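Cells of the RPE/choroid/sclera of control and Dox mice were profiled by 10x Genomics 5′ single-cell RNA-seq, 1 library per condition. The authors aligned and counted the reads with Cell Ranger 4.0.0 on mm10, per the labels, and deposited raw UMI counts per gene and cell. The labels name both a v2 kit and a v1.1 library, and how reads matching several places were treated is not given in the sources used here. From these counts, the cells kept had more than 500 UMIs, between 200 and 6000 genes, complexity above 0.8 and a mitochondrial share below 0.2, after the study's limits. Clusters came from Seurat 5.3.0 with sctransform 0.4.2 in R 4.3.3 (3000 features, 40 principal components, resolution 0.1) and were named from fixed markers. Doublets were removed only through the limit on genes; the highest Scrublet scores (scanpy 1.11.5) were left out as an alternative.

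UMIs were summed over the cells of a group with Python 3.11.15, numpy 2.4.6, pandas 2.3.3 and scipy 1.17.1. Levels have exact Poisson, shares Clopper-Pearson and ratios conditional binomial 95% intervals, which cover counting error only, and the scripts were tested on simulated data. Genes with at least 50 UMIs over both groups were counted as higher or lower past a log2 ratio of 0.322 in size. With 1 library per condition there is no test. Nuclear copies were found with blastn 2.17.0 against GENCODE vM21 transcripts. The members and gene lists were chosen with earlier results of these data known. Named were the 10 members, the other 3 mitochondrial genes, the genes that define the groups, up to 2 highest and 2 lowest genes of each nuclear list with at least 200 UMIs in RPE cells, and the 5 genes most like the members; leading genes and markers are named to describe clusters, and nuclear copies were chosen after their values were seen.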

Additional observations from a re-analysis of the deposited data

Results flagged for a closer look

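The summed level of the 10 members moved in opposite directions between Dox and control in different RPE groups. The log2 ratio of Dox over control was 0.0402 in main RPE cells and 0.0467 in Serpina3n-high RPE cells, but -0.0866 in Malat1-rich RPE cells. With 1 library per condition, the groups were parts of the same control library and the same Dox library. The difference between the groups was not tested, and none of the signs was stable. The Malat1-rich value became 0.011 with a mitochondrial share under 0.1, the Serpina3n-high value -0.1483 with cuts at 100000 CPM of Malat1 and 2000 CPM of Serpina3n, and the main RPE value -0.0776 with RPE cells taken at 3 or more Rpe65 UMIs.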

How the results depend on the processing

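With 1 library per condition, the values rest on counting error alone, and library, mice and injection cannot be told apart. Of 162 values recomputed under an alternative, 63 stayed within their 95% counting interval (a count of genes within 1.5 times), and 99 did not. The sign of 12 values changed, namely those of the summed members given here on the other side of 0 from the report and the share of mt-Nd5 over the 10 members only, which stayed within its interval at -0.0048. The cause was not tested. The values below are log2 ratios of the summed members. Here, the other cells set against main RPE cells were all kept cells outside the RPE, Malat1-rich ones included. Before any alternative, that ratio was 0.7864 in control and 0.9667 in Dox. No paired analysis was possible because each group holds 1 library and the labels carry no replicate numbers. Cells of any mitochondrial share put Dox over control at 0.0335 in all RPE cells, 0.0537 in main RPE cells and -0.1116 in Malat1-rich cells, Malat1-rich over main cells at 1.5097 in control and 1.3444 in Dox, Serpina3n-high over main cells at -0.2571 in Dox, and main RPE over the other cells at 0.7347 in control and 0.914 in Dox. A mitochondrial share under 0.1 put Dox over control at 0.0104 in all RPE cells, 0.0293 in main RPE cells and 0.011 in Malat1-rich cells, Malat1-rich over main cells at 0.6926 in control and 0.6743 in Dox, Serpina3n-high over main cells at -0.1882 in control and -0.1945 in Dox, and main RPE over the other cells at 0.7749 in control and 0.9461 in Dox. No upper limit on genes and none on complexity put Dox over control at 0.0011 in all RPE cells, 0.0129 in main RPE cells and 0.2248 in Serpina3n-high cells, Malat1-rich over main cells at 1.3279 in control and 1.2284 in Dox, and Serpina3n-high over main cells at -0.4105 in control and -0.1986 in Dox. Leaving out the highest doublet scores put Dox over control at 0.0085 in all RPE cells and -0.1679 in Malat1-rich cells, Malat1-rich over main cells at 1.464 in control and 1.2531 in Dox, and Serpina3n-high over main cells at -0.2712 in Dox. Leaving out shared barcodes put Dox over control at 0.027 in all RPE cells and -0.1086 in Malat1-rich cells, and Malat1-rich over main cells at 1.1483 in Dox. RPE cells taken at 3 or more Rpe65 UMIs put Dox over control at -0.0542 in all RPE cells, -0.0776 in main RPE cells, 0.1989 in Serpina3n-high cells and -0.0595 in Malat1-rich cells, Malat1-rich over main cells at 1.23 in control and 1.248 in Dox, and Serpina3n-high over main cells at -0.1664 in control and 0.1101 in Dox. RPE cells also required to lie in the RPE-like cluster put Dox over control at 0.014 in all RPE cells, 0.0598 in main RPE cells and -0.4596 in Malat1-rich cells, Malat1-rich over main cells at 1.8511 in control and 1.3316 in Dox, and Serpina3n-high over main cells at -0.21 in control and -0.2537 in Dox. Scaling to nuclear UMIs put Dox over control at 0.0349 in main RPE cells and 0.0826 in Serpina3n-high cells, Malat1-rich over main cells at 1.4095 in control and 1.2971 in Dox, and Serpina3n-high over main cells at -0.2778 in control. The mean of the cells' own CPM put Dox over control at 0.0145 in all RPE cells, 0.0313 in main RPE cells, 0.1537 in Serpina3n-high cells and -0.0437 in Malat1-rich cells, Malat1-rich over main cells at 0.8153 in control and 0.7403 in Dox, Serpina3n-high over main cells at -0.4798 in control and -0.3574 in Dox, and main RPE over the other cells at 0.8876 in control and 1.0426 in Dox. Thinning each cell to 2000 UMIs put Dox over control at 0.1198 in Serpina3n-high cells, Malat1-rich over main cells at 0.9683 in control and 0.8259 in Dox, and Serpina3n-high over main cells at -0.4481 in control and -0.3732 in Dox. Cuts at 25000 CPM of Malat1 and 500 CPM of Serpina3n put Dox over control at 0.0684 in main RPE cells, 0.2557 in Serpina3n-high cells and 0.0254 in Malat1-rich cells, Malat1-rich over main cells at 1.2486 in control and 1.2056 in Dox, and Serpina3n-high over main cells at -0.3911 in control and -0.2038 in Dox. Cuts at 100000 CPM of Malat1 and 2000 CPM of Serpina3n put Dox over control at 0.0474 in main RPE cells and -0.1483 in Serpina3n-high cells, Malat1-rich over main cells at 1.1246 in control and 0.9824 in Dox, and Serpina3n-high over main cells at -0.0697 in control and -0.2654 in Dox. Centring on the median of all genes put Dox over control at 0.0329 in all RPE cells and -0.1217 in Malat1-rich cells. At 1.5-fold, 1 member was higher and 0 were lower in Serpina3n-high cells, where 15.3% of all genes were higher and 11.8% lower. Centring left 3 members lower in Malat1-rich cells, and the share of all genes after centring was not counted. With shares taken over the 10 members only, the log2 ratio of shares in all RPE cells was 0.0234 for mt-Co1, -0.029 for mt-Co2, 0.0521 for mt-Co3 and -0.0497 for mt-Cytb. The alternatives that follow, with a stricter floor of 1000 UMIs and the cell with the most UMIs left out, were chosen after seeing the data. Cells of 2000 to 8000 UMIs put Malat1-rich over main cells at 0.3587 in control and 0.1512 in Dox. A mitochondrial share under 5%, which cuts on the measured quantity itself, put Malat1-rich over main cells at -0.185 in control and -0.0291 in Dox. Cells of at least 20000 UMIs put Serpina3n-high over main cells at 0.102 in control and -0.0487 in Dox. Leaving out cells with 5 or more fibroblast markers put Dox over control at -0.0232 in all RPE cells, 0.0079 in main RPE cells, -0.0887 in Serpina3n-high cells and -0.1834 in Malat1-rich cells.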

Other observations

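Cells left out for their mitochondrial share enter no comparison above except the alternative that took cells of any mitochondrial share. In the 22 control and 29 Dox RPE cells over that limit, the 10 members summed to 222864 CPM (219576 to 226189) and 236044 CPM (233307 to 238806), and mt-Atp8 took 40.2% and 31.4% of the UMIs of mt-Atp8 and mt-Atp6. In the 135 and 103 other cells over the limit, the sum was 289057 and 321947 CPM.

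Malat1-rich cells outside the RPE, 1036 in control and 536 in Dox, also held more RNA of the members than the other cells below the Malat1 cut, with 36969 CPM in control and 29960 CPM in Dox. On the log2 scale the sum was higher by 1.5 (1.49 to 1.51) in the control library and by 1.31 (1.30 to 1.33) in the Dox library. Their median depth was 1785 and 1852 UMIs per cell, against 4438 and 4830.5 UMIs, and the part of depth was not tested.

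Across single main RPE cells, the summed level of the members had a Spearman correlation of -0.43 in control and -0.33 in Dox with the UMIs of the cell, 0.60 and 0.58 with the level of Malat1 and 0.03 and -0.02 with that of Rpe65. In Malat1-rich RPE cells (153 and 211) the signs for UMIs and Malat1 were opposite, at 0.39 and 0.36 and at -0.42 and -0.40. In Serpina3n-high RPE cells (15 and 192) they were -0.19 and -0.23 for UMIs and 0.48 and 0.48 for Malat1. The main RPE values describe 1358 and 1227 cells. All these values come from cells of 1 library each, whose levels share a denominator.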
